A study of Mus musculus with 7 samples.

Results

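The Zfp900-series genes are the mouse zinc finger genes that carry a number of 3 digits that begins with 9 after Zfp. All rows of the deposited gene table whose symbol is Zfp followed by a 9 and a further pair of digits were taken, which gave 32 genes of 24739 in the table. The table lists a further 303 zinc finger genes with another number after Zfp. RNA-Seq libraries came from whole testes of C57BL/6 embryos at E14.5, with 1 pair of testes from 1 embryo per library. Of the 7 libraries, 3 were labelled wild-type and 4 came from embryos homozygous for the *Glis3* zf5 allele (n = 3 wild-type and n = 4 mutant). This allele lacks an exon of *Glis3* in every cell of the embryo, not only in germ cells, and the labels name no treatment for either group. Libraries are called WT 1 to 3 and mutant 1 to 4 after their labels. Ribosomal RNA was depleted and no poly-A selection was made, so unspliced RNA was sequenced beside mRNA.

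Most zinc finger genes of this kind encode proteins with a KRAB domain and a row of C2H2 zinc fingers. The fingers bind DNA, often within a retrotransposon, and the KRAB domain binds TRIM28 (KAP1), which brings the methyltransferase SETDB1, heterochromatin protein 1 and histone deacetylases to the site. These genes arose by repeated local duplication and often stand side by side in clusters, and in fetal germ cells they act while DNA methylation is being erased and rebuilt.

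Series-wide values that touch the members are few. FPKM of *Glis3* was 7.63 and 6.89 in WT 1 and WT 2, 2.91 in the library labelled WT 3 and 3.86, 3.26, 2.90 and 2.66 in the mutants, so that 1 library labelled wild-type lay within the mutant range (log2 fold change -0.69, adjusted p = 0.268 from limma). FPKM covers exons that the allele keeps. The expected cell types were present: the mean log2(FPKM + 0.5) ranged from 5.01 to 5.40 for 8 Sertoli cell genes and from 7.66 to 8.49 for 6 fetal Leydig cell genes. The mean of the fetal Leydig cell list did not overlap between the groups, with at most 8.25 in WT and at least 8.28 in the mutants. Taken singly, 2 of its 6 genes did not overlap (33.3%, against 14.9% of all tested genes). All 6 had a fold change above 0 (52.1% of all tested genes did). In limma 5 had an unadjusted p under 0.05 (83.3%, against 17.0% of all tested genes) and none an adjusted p under 0.05. The 5 skeletal muscle genes ranged from 0.42 to 3.11 and did not follow the groups. Between 3454317 and 4670830 reads per library were counted on repeat elements. For FPKM the paper gives a minimum number of read pairs, and the depth of each library is unknown.

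The promoters of the cluster on chromosome 17 share stretches of sequence, and several are shown here for that reason. RefSeq promoters of 300 bases (GRCm38.p6, the build also called mm10) were found for 29 of the 32 members (not for *Zfp930*, *Zfp934* and *Zfp960*) and end shortly after the start site. *Zfp942* and *Zfp943* are transcribed away from each other from start sites 95 bases apart, and their promoter windows overlap by 194 bases. The promoter of *Zfp942* also shares an unbroken run of 207 identical bases with that of *Zfp944*, which lies further along the chromosome. The run is in capitals in both.
Zfp942 (chr17:21962415-21962714, minus strand): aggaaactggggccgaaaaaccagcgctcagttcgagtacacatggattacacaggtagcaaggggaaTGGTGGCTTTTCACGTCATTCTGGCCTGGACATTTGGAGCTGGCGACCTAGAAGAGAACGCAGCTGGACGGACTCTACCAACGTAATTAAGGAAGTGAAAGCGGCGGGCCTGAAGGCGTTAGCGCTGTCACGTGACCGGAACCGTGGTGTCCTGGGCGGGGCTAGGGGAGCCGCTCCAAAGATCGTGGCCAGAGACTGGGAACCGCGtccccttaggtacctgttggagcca
Zfp944 (chr17:22361351-22361650, minus strand): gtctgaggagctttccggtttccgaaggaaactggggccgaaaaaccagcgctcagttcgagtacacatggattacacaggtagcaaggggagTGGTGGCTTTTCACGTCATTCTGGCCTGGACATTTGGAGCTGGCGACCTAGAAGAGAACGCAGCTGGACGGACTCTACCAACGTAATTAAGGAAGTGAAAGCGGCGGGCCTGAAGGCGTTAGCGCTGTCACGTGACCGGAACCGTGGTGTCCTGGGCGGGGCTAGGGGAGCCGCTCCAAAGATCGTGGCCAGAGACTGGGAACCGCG
Within the run stands the word ACCGGAACCG, which 4 members hold (*Zfp942*, *Zfp943*, *Zfp944* and *Zfp946*, all of this cluster) and which the promoters of 0.0851% of all 27025 genes with a RefSeq promoter hold on either strand. The word was chosen from these promoters, and its share among them is a description. For *Zfp942* and *Zfp943* it lies where their windows overlap, so they hold the same copy of it. It is in capitals in the promoter of *Zfp946*.
Zfp946 (chr17:22423952-22424251, plus strand): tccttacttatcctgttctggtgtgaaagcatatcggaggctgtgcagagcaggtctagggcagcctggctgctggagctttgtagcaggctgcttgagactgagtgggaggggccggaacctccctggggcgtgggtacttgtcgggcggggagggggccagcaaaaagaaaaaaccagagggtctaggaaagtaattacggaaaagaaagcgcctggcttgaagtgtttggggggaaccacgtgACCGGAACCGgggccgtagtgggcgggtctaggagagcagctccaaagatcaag

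Another word, CTAGCCAATC, was one of 2 overlapping 10-base words held by the most members when both strands were searched. It stands in the promoters of 6 of 29 members, on chromosomes 2, 8, 10, 13 and 17 (*Zfp935*, *Zfp937*, *Zfp938*, *Zfp959*, *Zfp963* and *Zfp964*), against 2.45% of 245 other numbered Zfp genes and 0.34% of all genes. The word was chosen from these promoters and its share among them is a description. It overlaps CCAAT, the core of the CCAAT box bound by NF-Y. CCAAT itself stood on either strand in the promoters of 19 of 29 members (65.5%), 47.3% of other numbered Zfp genes and 41.1% of all genes. The longer word is in capitals for *Zfp938*, whose FPKM had an unadjusted p under 0.05, and for *Zfp963* and *Zfp964*, neighbouring members on chromosome 8.
Zfp938 (chr10:82241226-82241525, minus strand): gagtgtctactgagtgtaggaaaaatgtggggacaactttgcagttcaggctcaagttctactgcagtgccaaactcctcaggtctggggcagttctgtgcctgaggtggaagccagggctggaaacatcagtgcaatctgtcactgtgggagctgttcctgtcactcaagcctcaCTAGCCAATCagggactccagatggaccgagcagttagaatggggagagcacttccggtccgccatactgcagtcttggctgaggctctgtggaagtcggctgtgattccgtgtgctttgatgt
Zfp963 (chr8:69749913-69750212, minus strand): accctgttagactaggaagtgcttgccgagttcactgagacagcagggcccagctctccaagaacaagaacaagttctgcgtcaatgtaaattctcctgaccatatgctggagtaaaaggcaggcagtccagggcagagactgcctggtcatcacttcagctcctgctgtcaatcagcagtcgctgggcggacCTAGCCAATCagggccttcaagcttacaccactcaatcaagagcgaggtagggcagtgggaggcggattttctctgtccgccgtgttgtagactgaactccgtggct
Zfp964 (chr8:69654306-69654605, plus strand): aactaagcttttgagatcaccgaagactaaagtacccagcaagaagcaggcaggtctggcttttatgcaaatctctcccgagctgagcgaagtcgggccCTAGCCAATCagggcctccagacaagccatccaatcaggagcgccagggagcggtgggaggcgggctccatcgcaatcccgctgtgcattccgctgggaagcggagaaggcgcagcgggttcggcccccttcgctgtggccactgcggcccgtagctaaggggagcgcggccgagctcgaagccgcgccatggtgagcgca
*Zfp936* had the lowest log2 fold change in FPKM, and its promoter is shown with CCAAT in capitals.
Zfp936 (chr7:43177340-43177639, plus strand): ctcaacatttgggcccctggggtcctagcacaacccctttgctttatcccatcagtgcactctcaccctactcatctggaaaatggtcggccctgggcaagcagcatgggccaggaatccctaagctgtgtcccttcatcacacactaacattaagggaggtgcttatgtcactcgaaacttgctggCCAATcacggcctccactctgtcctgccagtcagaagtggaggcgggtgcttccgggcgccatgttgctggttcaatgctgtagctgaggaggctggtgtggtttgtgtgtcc
The words TGGGTGGTC and TGGGGGGT, which resemble the sequence bound by GLIS proteins, were not found on either strand in these windows of the 29 members, and 0.253% and 1.53% of all 32851 promoters hold them. Among promoters of other numbered Zfp genes 0% and 1% did. Words this rare are seldom met in 35 promoters, so their absence does not tell whether GLIS3 binds there. The median member promoter had 9 CpG sites, against 16 for other numbered Zfp genes and 7 for all promoters.

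The 32 genes lie on 11 chromosomes, with 10 on chromosome 17 and 5 each on chromosomes 7 and 8. Members whose starts were at most 1 Mb from the next one were joined, and groups of 3 or more were called clusters. The cluster on chromosome 17 holds 7 genes (*Zfp948*, *Zfp942*, *Zfp943*, *Zfp947*, *Zfp944*, *Zfp946* and *Zfp945*) and the one on chromosome 8 holds 3 (*Zfp930*, *Zfp964* and *Zfp963*). The remaining 22 genes lie outside of clusters. In the longest reading frame of their transcripts, counted with the spacing of the classical C2H2 finger, 31 members had from 6 fingers (*Zfp956*) to 18 (*Zfp945*), and *Zfp957* had none in this spacing. Some transcripts share stretches of 100 bases with other genes, where reads may be hard to assign. Reads were longer and paired, so a shared stretch does not by itself make a read ambiguous. The highest shares with a single gene were 99.2% of the stretches of *Zfp935* (with *Gm49359*), 68.3% of *Zfp960* (with *Zfp97*), 36.1% of *Zfp963* (with *Gm20422*) and 17.7% of *Zfp932* (with *Gm15446*). The next was 10.9% of *Zfp937* (with *Zfp442*). FPKM of *Zfp935*, *Zfp960*, *Zfp963* and *Zfp932* is uncertain for that reason. The libraries were not counted by strand. By the GENCODE M21 spans *Zfp940* overlaps the antisense gene *Gm26554*, and *Zfp961* overlaps *Cyp4f18*. Reads of a stretch that lies in both genes cannot be told apart. FPKM used RefSeq spans, which are shorter for *Zfp940* and *Zfp961*, and whether these overlap the other gene was not examined.

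All members but *Zfp957* were expressed at low to moderate levels in the fetal testis. In 31 of 32 the mean FPKM over the 7 libraries was at least 0.5, the level needed to enter the test, and these ranged from 1.59 (*Zfp941*) to 18.4 (*Zfp958*). *Zfp957* lay between 0 and 0.028 FPKM. Mean FPKM was at least 10 in 11 members and at least 5 in 19. The median over the 31 members was 5.95 FPKM, against 7.42 for the 287 other numbered Zfp genes tested and 10.6 for all 13988 genes tested.

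**Figure D1:**
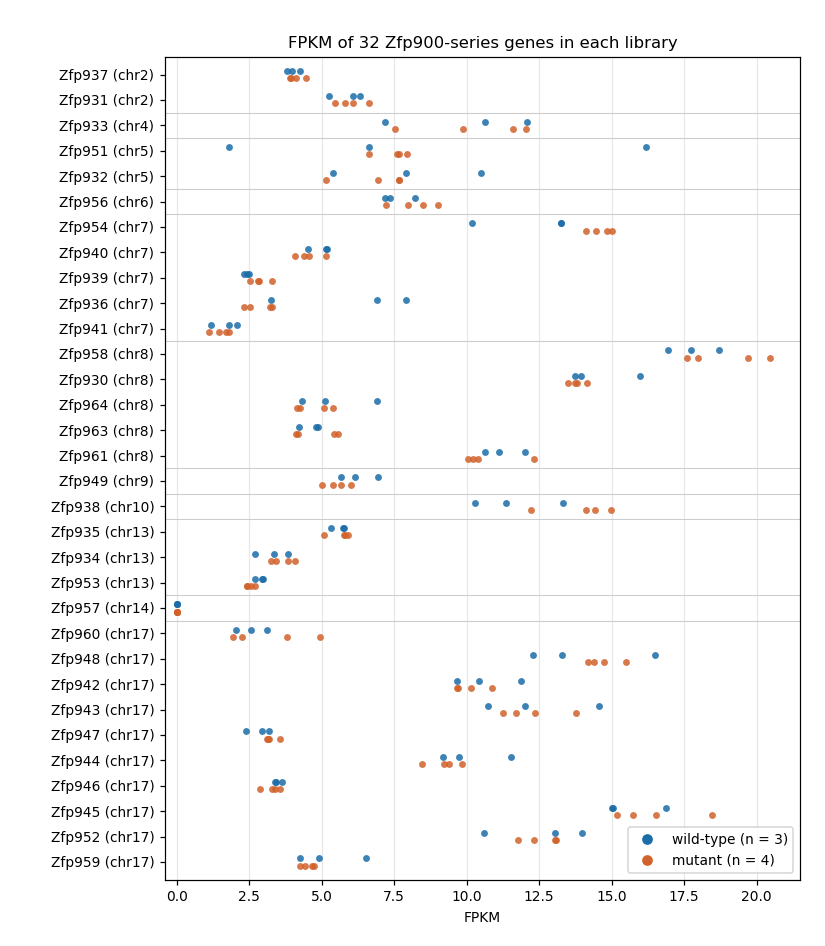
FPKM (horizontal axis, linear) of the 32 genes in each library, ordered by chromosome and position; each point is 1 library, blue for the 3 wild-type and orange for the 4 mutant. For most genes both colours cover the same range, *Zfp957* is near 0, and *Zfp951* spans from 1.79 to 16.2 within the wild-type group.

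The highest levels were those of *Zfp958*, *Zfp945*, *Zfp948*, *Zfp930*, *Zfp954* and *Zfp938*. FPKM of *Zfp958* (chr8:4613170-4630231, plus strand) was 16.9, 18.7 and 17.7 in WT against 18.0, 20.4, 17.6 and 19.7 in the mutants. *Zfp945* (chr17:22846697-22867134, minus strand), which has the most fingers of the series, had 15.1, 16.9 and 15.0 in WT against 16.5, 18.5, 15.2 and 15.7 in the mutants. *Zfp948* (chr17:21567046-21588682, plus strand) opens the same cluster and had 12.3, 16.5 and 13.3 in WT against 14.4, 15.5, 14.2 and 14.7 in the mutants. In all 3 genes the range of the mutant libraries overlapped that of the wild-type libraries. *Zfp930* (chr8:69209046-69230539, plus strand), of the cluster on chromosome 8, had 13.7, 16.0 and 13.9 in WT against 13.5, 13.8, 14.1 and 13.7 in the mutants. Its spread was small, and WT 2 stood above the other libraries. Over neighbours in this order of levels, from 18.4 to 13.0 FPKM, the ranges of the libraries overlapped.

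The question of the comparison was whether the levels of these genes differed between mutant and wild-type testes. Log2(FPKM + 0.5) was tested with limma over all 13988 genes. On this scale the change of a gene with low FPKM comes out too small. As a series the members had a median log2 fold change near 0, which lay between -0.02 and 0.07 over all alternatives. Of the 31 tested, 17 had a fold change above 0 (52.1% of all tested genes did) and 14 below, with a median of 0.01, against 0.01 for all tested genes and -0.00425 for other numbered Zfp genes. No member was past an adjusted p of 0.05 in limma, a threshold that 1 gene of 13988 passed (0.00715%), or 722 genes without the library labelled WT 3. An unadjusted p under 0.05 was found for 3 members of 31 (17.0% of all tested genes), of which *Zfp954* and *Zfp938* were higher in the mutant libraries (8.21% of all tested genes were) and *Zfp936* was lower (8.79%). The count was 1, *Zfp936* alone, without mutant 1, 2 or 4 or WT 1, and 5 without WT 2. Wild-type and mutant libraries did not overlap in 2 members (14.9% of all tested genes), *Zfp954* and *Zfp939*.

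*Zfp936* (chr7:43177588-43192109, plus strand) was the member with the lowest log2 fold change. FPKM was 6.91, 7.90 and 3.27 in WT against 3.28, 2.31, 3.22 and 2.55 in the mutants. WT 1 and WT 2 stood well above the other 5 libraries, and the library labelled WT 3 lay within the mutant range, as it did for *Glis3*. WT averaged 6.03 ± 2.44 (SD, n = 3) and the mutants 2.84 ± 0.487 (SD, n = 4), a log2 fold change of -0.90 (standard error 0.26, unadjusted p = 0.00829, adjusted p = 0.186 from limma; exact permutation test over the 35 assignments of libraries to groups, two-sided, p = 0.0571). This test cannot give a p below 0.0286. Without the library labelled WT 3 limma gave a fold change of -1.25 on the log2 scale at an adjusted p of 0.00778, past the threshold. It gave -0.76 at an adjusted p of 0.432 without WT 1 and -0.67 at an adjusted p of 0.259 without WT 2. The germ cell marker list was also highest in WT 1 and WT 2. Over its 12 genes the mean log2(FPKM + 0.5) was 5.53 and 5.46 in WT 1 and WT 2 and 4.22 in the library labelled WT 3. In the mutants it was 4.39, 4.07, 4.11 and 3.90. All 12 had a fold change below 0 (52.1% of all tested genes were above 0). In limma 9 had an unadjusted p under 0.05 (75%, against 17.0% of all tested genes) and none an adjusted p under 0.05. None was at 0 in every library. *Kit* had another order, with 6.91, 3.82 and 6.64 FPKM in WT against 4.31, 4.91, 5.77 and 5.70 in the mutants. The list holds *Ddx4*, *Mael*, *Piwil2*, *Tdrd1* and *Nanos3*, which the paper reports as reduced in the mutant testes. The part of the germ cell list in the values of *Zfp936* was not tested. In whole testes fewer cells of a type and less RNA per cell cannot be told apart from these values. By cell counts the paper reports no difference in germ cell number between the genotypes at this stage, while its discussion dates the first loss to it. Of 12 tested genes that start within 1 Mb of *Zfp936*, 4 also had WT 1 and WT 2 as the 2 highest libraries (33.3%, against 14.3% of all tested genes). They were the zinc finger genes *Zfp819* and *EU599041*, *Gm2381* and *9830147E19Rik*, and were chosen after their values were seen. *EU599041* shares 1.78% of the 100-base stretches of *Zfp936*. Such counts of neighbours for *Zfp951*, *Zfp960* and *Zfp933* are given below.

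*Zfp954* (chr7:7114683-7121476, minus strand) had 10.2, 13.3 and 13.2 in WT against 14.8, 15.0, 14.1 and 14.5 in the mutants. Every mutant library lay above every wild-type library, the lowest of which was replicate 1. The log2 fold change was 0.26 (standard error 0.10, unadjusted p = 0.0288, adjusted p = 0.247 from limma; exact permutation test, p = 0.0286, the smallest p this design allows), and it was 0.14 without WT 1. *Zfp938* (chr10:82224856-82241275, minus strand) had 10.3, 13.3 and 11.4 in WT against 14.4, 14.1, 12.2 and 15.0 in the mutants, with WT 2 inside the mutant range. Its log2 fold change was 0.25 (standard error 0.10, unadjusted p = 0.0398, adjusted p = 0.273 from limma). The fetal Leydig cell list was also higher in every mutant library, and its part in the values of *Zfp954* and *Zfp938* was not tested. *Zfp939* (chr7:39449518-39477416, plus strand), which GENCODE M21 annotates as a transcribed pseudogene although its longest frame holds 14 fingers, had 2.31, 2.43 and 2.51 in WT against 3.29, 2.84, 2.81 and 2.53 in the mutants. Its groups did not overlap, but the gap between mutant 4 and the library labelled WT 3 was small, and the adjusted p was 0.355 from limma (unadjusted p = 0.0823, log2 fold change 0.20, standard error 0.10).

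**Figure D2:**
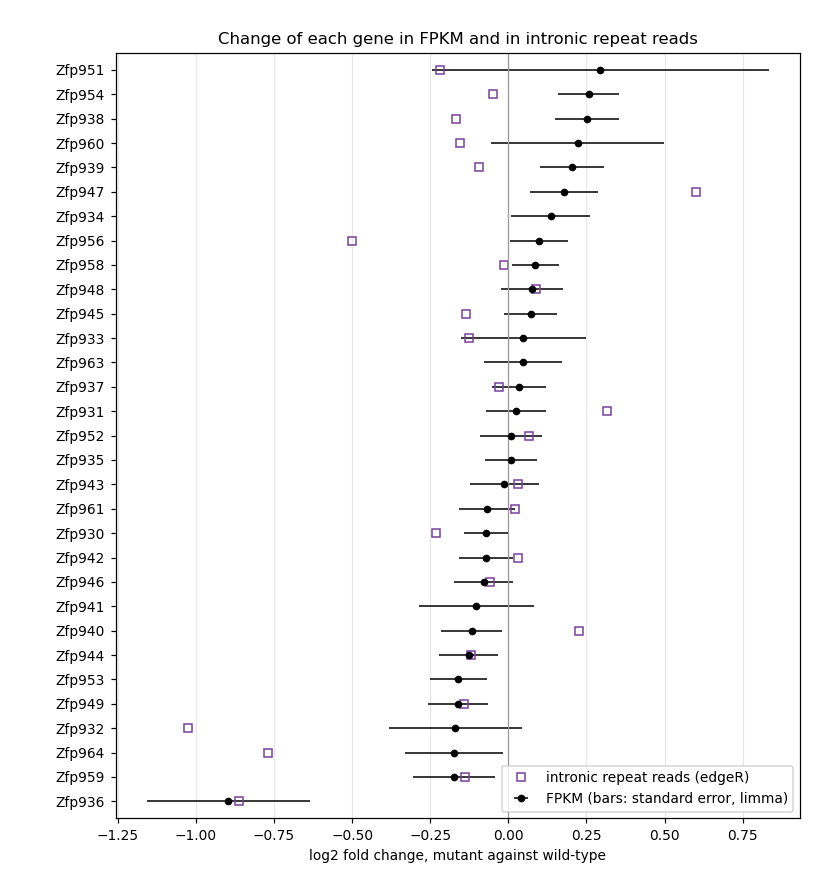
Log2 fold change of mutant against wild-type (horizontal axis) for the 31 members tested in FPKM (black points with standard errors from limma) and, where tested, for their intronic repeat reads (purple squares, edgeR), sorted by the change in FPKM. *Zfp936* is lowest in FPKM at -0.90 with an intronic value of -0.86, and *Zfp951* at the top has the widest error.

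The summed level of both chromosome clusters differed little between the groups. In the cluster on chromosome 17 (chr17:21567046-22867134) the summed FPKM of the 7 genes was 64.1, 78.1 and 65.5 in WT against 67.4, 75.5, 65.7 and 68.6 in the mutants. WT averaged 69.2 ± 7.75 (SD, n = 3) and the mutants 69.3 ± 4.31 (SD, n = 4), with 3 genes above and 4 below 0 in fold change, from -0.13 to 0.18. In the cluster on chromosome 8 (chr8:69209046-69749962) the sum was 23.1, 27.8 and 23.1 in WT against 24.5, 24.3, 22.5 and 22.1 in the mutants. The 22 genes outside of clusters summed to 141, 167 and 142 against 155, 152, 147 and 147. In each sum the highest library was WT 2, and the differences between group means were smaller than the SD of the wild-type libraries. The sums were not tested.

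Within the chromosome 17 cluster the libraries of both groups overlapped for every gene. *Zfp943* had 10.7, 14.5 and 12.0 in WT against 11.7, 13.8, 11.2 and 12.4 in the mutants. *Zfp942*, which starts from the other side of the same promoter stretch, had 10.4, 11.9 and 9.68 in WT against 9.72, 10.9, 9.67 and 10.1 in the mutants. Both were highest in WT 2. *Zfp944*, which shares the run of promoter sequence with *Zfp942*, had 9.74, 11.5 and 9.19 in WT against 8.46, 9.83, 9.41 and 9.20 in the mutants. *Zfp946* had 3.42, 3.65 and 3.38 in WT against 3.39, 3.55, 2.87 and 3.29 in the mutants. WT 2 was again the highest library for both, by a small margin for *Zfp946*. *Zfp947*, at a lower level, had 2.38, 3.17 and 2.94 in WT against 3.18, 3.56, 3.14 and 3.13 in the mutants, with a log2 fold change of 0.18 and an adjusted p of 0.436 in limma. The log2 fold change was -0.01 for *Zfp943*, -0.07 for *Zfp942*, -0.13 for *Zfp944* and -0.08 for *Zfp946* (adjusted p from 0.516 to 0.967 in limma).

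When members up to 5 Mb apart were joined, a further cluster formed on chromosome 13 from *Zfp935*, *Zfp934* and *Zfp953*. Its summed FPKM averaged 11.8 ± 0.452 in WT (SD, n = 3) and 11.8 ± 0.693 in the mutants (SD, n = 4). The RefSeq spans of *Zfp934* and *Zfp935* used for FPKM do not overlap, while their GENCODE M21 spans overlap on the same strand. Nearly all of *Zfp935* is shared with *Gm49359*, so that its value is uncertain.

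The members not yet described had groups that overlapped. Among those of middle level, *Zfp961* averaged 11.3 ± 0.706 FPKM in WT and 10.7 ± 1.06 in the mutants, *Zfp949* 6.24 ± 0.642 FPKM in WT and 5.52 ± 0.420 in the mutants and *Zfp952* 12.5 ± 1.75 FPKM in WT and 12.5 ± 0.630 in the mutants. *Zfp963*, which closes the chromosome 8 cluster, averaged 4.63 ± 0.364 FPKM in WT and 4.83 ± 0.770 in the mutants, *Zfp959* 5.23 ± 1.16 FPKM in WT and 4.52 ± 0.220 in the mutants and *Zfp956* 7.59 ± 0.551 FPKM in WT and 8.17 ± 0.761 in the mutants. For these 6 and for *Zfp931*, *Zfp937*, *Zfp940* and *Zfp941*, the log2 fold change lay between -0.17 and 0.10, and the lowest adjusted p in limma was 0.418. *Zfp931* averaged 5.89 ± 0.566 FPKM in WT and 5.99 ± 0.496 in the mutants, *Zfp937* 4.01 ± 0.241 FPKM in WT and 4.12 ± 0.257 in the mutants, *Zfp940* 4.96 ± 0.362 FPKM in WT and 4.54 ± 0.446 in the mutants and *Zfp941* 1.68 ± 0.458 FPKM in WT and 1.52 ± 0.307 in the mutants. All errors are SDs over 3 WT and 4 mutant libraries.

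**Figure D3:**
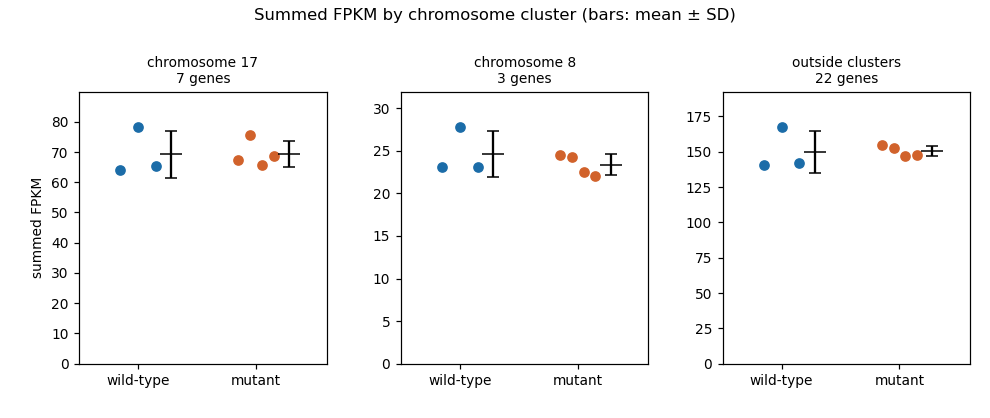
Summed FPKM (vertical axis, from 0) of the 7 genes of the chromosome 17 cluster, the 3 genes of the chromosome 8 cluster and the 22 genes outside of clusters; points are libraries, and black bars give the mean and SD of the 3 wild-type (blue) and 4 mutant (orange) libraries. The group means nearly coincide, and WT 2 is the highest point in each panel.

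WT 2 stood out across the series of genes. It held the highest FPKM for 14 of 31 tested members (45.2%), against 12.5% of all tested genes and 13.6% of other numbered Zfp genes. WT 1 held the lowest value for 11 members (35.5%, against 20.02% of all tested genes) and the highest for 3 (9.68%, against 28.8%). These shares describe 7 libraries and were not tested. The summed FPKM of all 32 members was 228, 273 and 231 in WT against 247, 252, 235 and 238 in the mutants.

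Some members differed more between libraries of 1 group than between the groups. The median within-group SD of log2(FPKM + 0.5) was 0.13 over the 31 members and 0.132 over all tested genes, but it reached 0.912 for *Zfp951*, 0.451 for *Zfp960*, 0.427 for *Zfp936*, 0.346 for *Zfp932* and 0.326 for *Zfp933*. *Zfp951* (chr5:104813168-104860068, minus strand) had 1.79, 16.2 and 6.62 in WT against 7.94, 6.65, 7.61 and 7.68 in the mutants. The 4 mutant libraries agreed closely, whereas WT 1 and WT 2 were the lowest and the highest of all 7. It had the highest log2 fold change of the series, 0.29, but with a standard error of 0.54 (adjusted p = 0.812 from limma), and the fold change was -0.46 without WT 1 and 0.98 without WT 2. *Zfp960* (chr17:17064103-17089631, plus strand) had 3.12, 2.57 and 2.04 in WT against 3.82, 4.95, 1.94 and 2.27 in the mutants. The mutants 1 and 2 were highest and mutants 3 and 4 lay within the range of the wild-type libraries or just below it. Of 12 tested genes that start within 1 Mb of *Zfp951*, 2 also had WT 1 as the lowest library (16.7%, against 20.02% of all tested genes). Of 6 such genes around *Zfp960*, 1 also had mutants 1 and 2 as the 2 highest libraries (16.7%, against 11.4%). That gene was *Zfp97*, which shares sequence with *Zfp960*. These shares were not tested.

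*Zfp933* (chr4:147822986-147848375, minus strand) had 7.18, 12.1 and 10.6 in WT against 9.86, 7.53, 12.0 and 11.6 in the mutants. WT 1 and mutant 2 were lowest, so that the gap ran through both groups (log2 fold change 0.05, adjusted p = 0.926 from limma), and the sign turned without WT 1 (-0.16). Genes beside it showed the same pair of libraries at one end. Of 24 tested genes that start within 1 Mb of *Zfp933*, 14 had WT 1 and mutant 2 as the 2 lowest or the 2 highest libraries (58.3%, against 12.7% of all tested genes). The pattern was chosen after values were seen and was not tested. *Fbxo44*, a ubiquitin ligase subunit, had 0.492, 3.14 and 4.53 FPKM in WT against 3.10, 0.470, 4.38 and 4.54 in the mutants. *Gm13154* ran the other way, with 3.74, 0.501 and 0.595 in WT against 2.05, 3.61, 0.403 and 0.482 in the mutants. For *Gm13154*, mutant 1 lay between the 2 sets of libraries, as it did for the intronic reads of *Zfp933* given below. For *Fbxo44*, mutant 1 lay just below WT 2.

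**Figure D4:**
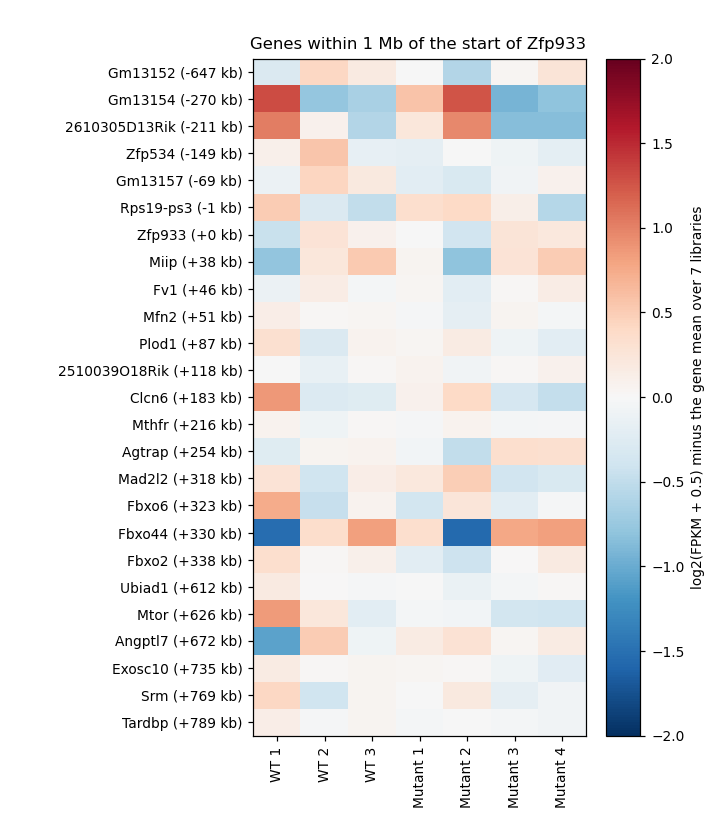
*Zfp933* and the 24 tested genes that start within 1 Mb of it, one row per gene in order along the chromosome (distance from the start of *Zfp933* in kb), and 1 column per library; the colour is log2(FPKM + 0.5) minus the mean of the gene over the 7 libraries. WT 1 and mutant 2 share colours in rows such as *Gm13154*, *Miip* and *Fbxo44*, apart from most of the others.

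Reads of repeat elements that lie inside a gene but outside of its exons gave a second readout, which FPKM does not use. Reads of such loci were summed per GENCODE M21 gene, shown as CPM with TMM-scaled library sizes, and tested with edgeR where they averaged 10 or more per library. They come from unspliced RNA or from transcripts of the elements themselves, which cannot be told apart. Of the 32 members 26 were tested, 4 (*Zfp934*, *Zfp935*, *Zfp941* and *Zfp957*) had fewer reads, and *Zfp953* and *Zfp963* had no such locus with reads. Fold changes were above 0 in 8 members and below 0 in 18, with a median of -0.11 (from -0.16 to -0.01 over all alternatives), whereas 49.2% of the 11558 genes tested were above 0 (median -0.00463). Of 218 other numbered Zfp genes tested in this way, 87 were above 0 and 131 below, with a median of -0.05. No member was past an adjusted p of 0.05 in edgeR (0.199% of all tested genes, or 23, were, and from 1 to 136 when 1 library was left out, most without the library labelled WT 3). An unadjusted p under 0.05 was found for 4 of 26 (12.0% of all tested genes), namely *Zfp936*, *Zfp964*, *Zfp932* and *Zfp947*, and the groups did not overlap in 2, *Zfp964* and *Zfp947* (9.92% of all tested genes). The sign of the change was the same in FPKM and in intronic reads for 12 of the 26 members.

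*Zfp936* had a log2 fold change of a like size in this readout. Loci were taken over the GENCODE M21 span of the gene (chr7:43114229-43192109), which begins further upstream than the RefSeq span used for FPKM. The 52 loci with reads gave 51.9, 41.0 and 26.6 CPM in WT against 22.7, 17.7, 27.8 and 19.8 in the mutants, from 31 to 131 reads per library. The order was again WT 1 and WT 2 above the rest, with the library labelled WT 3 just below mutant 3. WT averaged 39.8 ± 12.7 (SD, n = 3) and the mutants 22.0 ± 4.38 (SD, n = 4), which gave -0.86 (unadjusted p = 0.00173, adjusted p = 0.15 from edgeR; permutation over the same exact 35 assignments gave p = 0.0571). Once more without the library labelled WT 3 edgeR gave -1.09 at an adjusted p of 0.0158, against -0.61 at 0.516 without WT 1 and -0.85 at 0.222 without WT 2. The locus with most reads in the gene, an ORR1D-int element at chr7:43184057-43185015, had 31, 22 and 10 reads in WT against 8, 4, 11 and 1 in the mutants.

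*Zfp964*, a neighbour of *Zfp963* on chromosome 8, had 17.4, 17.0 and 12.6 CPM in WT against 10.8, 6.86, 9.85 and 9.08 in the mutants over 6 loci, from 12 to 44 reads per library. All mutant libraries lay below all WT libraries (log2 fold change -0.77, adjusted p = 0.236 from edgeR; exact permutation test, p = 0.0286). With all loci inside the gene, those over exons included, the log2 fold change was -0.26. Its FPKM, 5.13, 6.91 and 4.31 in WT against 5.40, 5.08, 4.27 and 4.13 in the mutants, overlapped between the groups. *Zfp947*, of the chromosome 17 cluster, had 10.7, 11.5 and 8.87 CPM in WT against 14.1, 17.7, 14.5 and 16.6 in the mutants, with every mutant library above every wild-type library (log2 fold change 0.60, adjusted p = 0.324 from edgeR; exact permutation test, p = 0.0286). These values rest on 19 to 31 reads per library.

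*Zfp932* (chr5:109996527-110010411, plus strand) and its close relative *Gm15446* are known to bind endogenous retroviruses of the ERVK class. FPKM of *Zfp932* was 10.5, 7.92 and 5.40 in WT against 7.66, 6.94, 7.67 and 5.15 in the mutants. *Gm15446* lay between 0 and 0.53 FPKM and did not pass the filter. The intronic reads of *Zfp932* were 64.9, 24.1 and 14.5 CPM in WT against 15.7, 16.6, 25.5 and 11.8 in the mutants. WT 1, with 164 reads, stood alone above the other libraries with 22 to 44, and the log2 fold change of -1.03 (unadjusted p = 0.0203, adjusted p = 0.321 from edgeR) became -0.14 without it. An MTD element at chr5:110003848-110004143 had 58 reads in WT 1 and between 8 and 19 in the others.

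The genes with large within-group spread did not all behave alike in this readout. *Zfp933* gave 17.4, 99.0 and 92.4 CPM in WT against 55.2, 14.3, 97.3 and 82.3 in the mutants, so that WT 1 and mutant 2 were again lowest and mutant 1 between. An IAPEz-int element inside *Zfp933*, at chr4:147833853-147840309, had 2, 30 and 41 reads in WT against 11, 1, 28 and 23 in the mutants. *Zfp951* gave 89.9, 142 and 84.9 CPM in WT against 86.1, 85.7, 86.3 and 102 in the mutants. Here WT 2 was again highest, but WT 1, lowest in FPKM, lay within the range of the other 5 libraries. *Zfp960* gave 29.3, 23.5 and 11.7 CPM in WT against 21.1, 22.3, 16.2 and 18.2 in the mutants, and mutants 1 and 2, highest in FPKM, did not stand above WT 1 and WT 2.

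**Figure D5:**
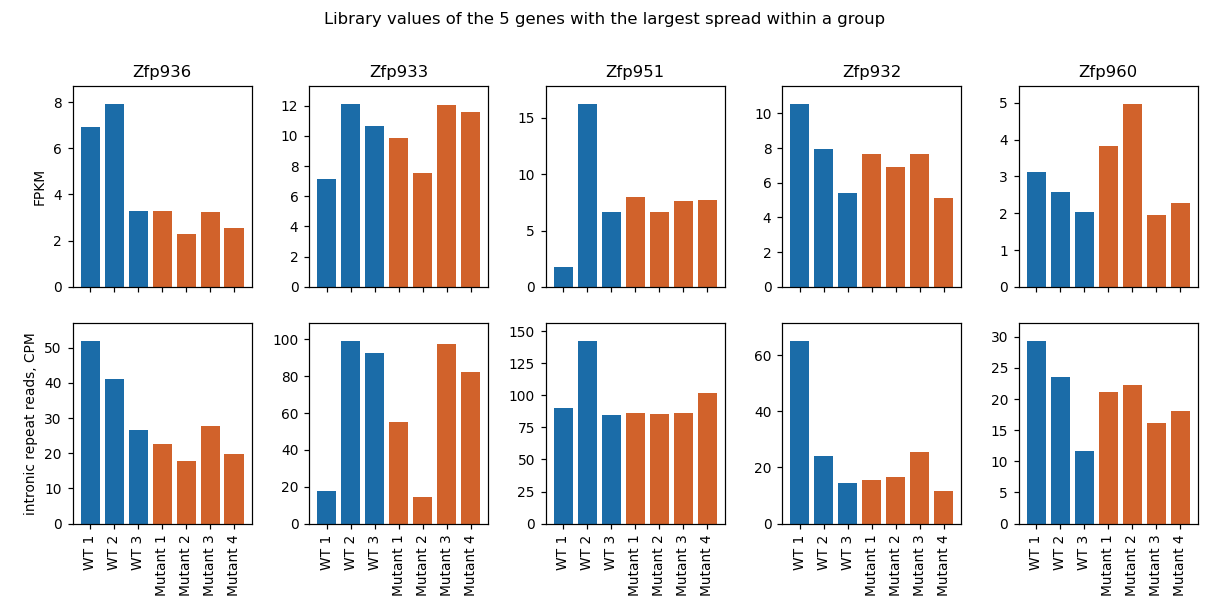
FPKM (upper row) and CPM of intronic repeat reads (lower row) in each library for the 5 members with the largest spread within a group; bars start at 0, blue for wild-type and orange for mutant. *Zfp936* and *Zfp933* show the same high and low libraries in both rows, while *Zfp951* in WT 1 is low only in the upper row.

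Transcripts of the proteins that KRAB zinc finger proteins act through were read beside them, and no protein was measured. Of 24 listed partners, among them the subunits of the NuRD complex and heterochromatin protein 1, 23 passed the filter, 18 had a fold change below 0 and 5 above (52.1% of all tested genes were above 0), 3 had an unadjusted p under 0.05 (13.0% of the list, against 17.0% of all tested genes), and none was past an adjusted p of 0.05 in limma. The median was -0.08. On the log2 scale of this test the mean level over the 23 partners that passed the filter was 5.45, 5.22 and 5.35 in WT. In the mutants it was 5.28, 5.30, 5.29 and 5.25. Every mutant library lay within the wild-type range, and WT 1 was the highest library. *Trim28*, the shared corepressor, had 280.2, 176 and 212 FPKM in WT against 193, 203, 219 and 198 in the mutants, all mutant values within the wild-type range. *Setdb1*, the histone H3 lysine methyltransferase of the complex, had 49.0, 43.0 and 41.0 in WT against 38.3, 38.4, 36.5 and 36.9 in the mutants. Its groups did not overlap, as held for 4 of the 23 partners (17.4%, against 14.9% of all tested genes), at a log2 fold change of -0.23 (standard error 0.07, unadjusted p = 0.0104, adjusted p = 0.194 from limma). The others with an unadjusted p under 0.05, named after their values were seen, were *Gatad2a* of NuRD (-0.24, adjusted p = 0.226 from limma) and *Uhrf1*, which guides DNA methylation to replicated DNA (0.22, adjusted p = 0.244 from limma). *Sumo2* was listed near 0. Of 6 KRAB zinc finger genes with known targets, such as *Zfp57* of imprinted loci and *Zfp809* of murine leukemia viruses, 5 passed the filter, and none had an unadjusted p under 0.05 in limma. *Zfp57* had 15.6, 12.6 and 16.9 FPKM in WT against 13.7, 15.7, 14.7 and 14.2 in the mutants.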

How the data were processed

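RNA-Seq of whole testes at E14.5 was used from 7 embryos, 3 labelled wild-type and 4 homozygous mutant, grouped by the sample labels. For the gene table the authors aligned reads to mm10 with TopHat 2.0.12, which kept reads with several alignments up to a limit, and made FPKM values per RefSeq gene with Cuffquant and Cuffnorm, without strand. For the repeat table the authors made counts of uniquely mapped reads per RepeatMasker LINE, SINE and LTR element with HTSeq-count, and deposited them as raw counts. In the header of the FPKM and repeat tables the names of WT replicate 3 and mutant replicate 1 run together without a tab between them. Columns were therefore assigned by their place in the order of the header names. No column of values was left out (0 columns).

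Genes averaging 0.5 FPKM or more were tested two-sided on log2(FPKM + 0.5) with limma 3.58.1 under R 4.3.3, with a trended eBayes prior. Repeat counts were summed per GENCODE M21 gene over loci wholly inside 1 gene that overlap no exon, and genes with a mean of at least 10 reads went into edgeR 4.0.16 (quasi-likelihood fit, TMM scaling, two-sided). Between 1707023 and 2528023 such reads per library entered. Benjamini-Hochberg adjustment ran over all genes tested, with a threshold of 0.05. For single genes, exact permutation tests over 35 assignments compared the group means of FPKM or CPM, without the log2 scale. Tests were also tried on data with known changes. Promoters came from RefSeq (GRCm38.p6) and transcripts from GENCODE M21, read with Python 3.11.15. The labels give no source that pairs embryos and name no litter. The tests set the difference between groups against the variation among embryos of a group, which may include that between litters.

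Members were taken by symbol. Named are the 6 with the highest mean FPKM, those with an unadjusted p under 0.05 in either test or with groups that do not overlap, the highest and lowest fold change, those with the largest spread within a group, *Zfp932* with *Gm15446*, and *Trim28* and *Setdb1*. The members and the gene lists were chosen with earlier results of these data known. Median log2 fold changes in FPKM of the other marker lists were 0.25 for Sertoli cell, 0.47 for fetal Leydig cell, 0.09 for interstitial cell, -0.02 for endothelial cell, 0.22 for macrophage, 0.23 for blood, -0.38 for mesonephric and 0.59 for skeletal muscle genes. As alternatives for FPKM, each library was left out in turn, replicate numbers entered as a block, pseudocounts were set to 0.1 and 1, the filter was dropped or raised to 2 FPKM, values were quantile normalized or centred by library median, and limma was run without its trend or with array weights. For repeat reads, DESeq2 1.42.0 or its size factors, plain library sizes, a dropped filter or one of 50 reads, and all loci inside a gene were tried, besides the block and the left-out libraries. Clusters were also joined over 5 Mb. Protein sequences were not used here.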

Additional observations from a re-analysis of the deposited data

Results flagged for a closer look

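Among the 4 mutant libraries, 1 library stood apart from the other 3 by most of the range of the group in 4 of the 58 sets of member values checked, FPKM and CPM of intronic repeat reads together. Chance alone marks about 1 in 20 such groups. For *Zfp961*, FPKM was 12.3 in mutant 1, against 10.05 to 10.4 in the other mutant libraries. For *Zfp935*, FPKM was 5.07 in mutant 4, against 5.79 to 5.91 in the other mutant libraries. For *Zfp947*, FPKM was 3.56 in mutant 2, against 3.13 to 3.18 in the other mutant libraries. For *Zfp951*, CPM of intronic repeat reads was 102 in mutant 4, against 85.7 to 86.3 in the other mutant libraries.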

How the results depend on the processing

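Results are given here as the number of genes past the threshold or the log2 fold change. Without 1 library at a time, the number of genes past the threshold in FPKM reached from 1 to 722 and in intronic repeat reads from 1 to 136, both highest without the library labelled WT 3. The members past it numbered 0 to 1 in both, the 1 being *Zfp936* without that library. Members with an unadjusted p under 0.05 numbered 1 to 5 in FPKM, the 5 without WT 2. In FPKM, no filter on low values gave 4 genes past the threshold and quantile normalization 3 (1 higher and 2 lower, against 1 lower in the main test), neither with a member. In intronic repeat reads, no filter gave 352 genes with 2 members (*Zfp932* and *Zfp936*) and 7 members with an unadjusted p under 0.05. A mean of at least 50 reads gave 1 gene, and all loci inside a gene 2. DESeq2 and a mean of at least 50 reads each left 2 members with an unadjusted p under 0.05. Deviations of libraries with the same replicate number correlated at 0.198, -0.177 and 0.229. Libraries with different numbers were not compared in this way, so these values cannot show whether the numbers pair the embryos. With the replicate number as a block, 0 genes were past the threshold in FPKM and 1 member (*Zfp936*) had an unadjusted p under 0.05, and in intronic repeat reads 1 gene and 2 members. The log2 fold change in FPKM turned sign for *Zfp933* with the block (-0.015), and without 1 library reached from -0.16 to 0.20. It reached from -0.40 to 0.045 for *Zfp932* and from -0.46 to 0.98 for *Zfp951*. *Zfp936* was lower in the mutants, with an unadjusted p under 0.05, in the main test and all 16 alternatives in FPKM and in the main test and all 14 in intronic reads. The log2 ratio of the summed FPKM lay between -0.05 and 0.10 for the cluster on chromosome 17 and between -0.12 and 0.02 for that on chromosome 8 over all alternatives. The cause of these shifts was not tested. Of the members' values, those on few reads are the least certain, such as *Zfp964* and *Zfp947*.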
